A study of Mus musculus with 14 samples.

Results

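The comparison set pools of clones against single clones of bone marrow stromal cells, the fibroblast-like cells that line the marrow and can form bone, fat or cartilage. Of the 14 RNA sequencing libraries in the series, the 4 pools OAC3, OA3, O3 and A3 were compared with the 8 single clones of the same potency, and all 12 were chosen by their labels alone. The cells were flushed from femora and tibiae of adult C57Bl/6 mice carrying irtTA-GBD*-TAg, which expresses Large T antigen only while dexamethasone and doxycycline are present, so that clones can be grown and then released from immortalization. All pools and all single clones carried this transgene, had been grown with both agents, and gave RNA after 3 days without them. The pools were made of several other clones from the same 2 mice, and the labels give neither the number of clones in a pool nor the share of each mouse.

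The tripotent group (OAC), which formed bone, fat and cartilage in culture assays, held the pool OAC3 and the single clones OAC2 and OAC1. The bone- and fat-forming group (OA) held OA3 with OA2 and OA1. The bone-forming group (O) held O3 with O2 and O1, and the fat-forming group (A) held A3 with A2 and A1. In each group, numbers 1 and 2 came from different mice. The labels do not say that a number marks the same mouse in every group. The remaining pools, OC3 and AC3, have no single clone of their potency and stayed outside the fit.

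A clone descends from 1 cell and keeps the inherited state of that cell, such as its chromatin marks, its positional Hox code or its stage of commitment. A pool of clones sums such states, so a gene that is on in some clones and off in others is read at an intermediate level. In marrow stroma, osteoblast commitment is known to run from Runx2 through Sp7 to bone matrix genes such as Ibsp.

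Libraries held 16888190 to 25649789 counts among the 12 compared. Levels are given in CPM, counts scaled to a common library size with TMM factors, and log2 differences were computed with a prior count of 2, which limits the differences of genes near 0. Marker genes of stromal, blood and endothelial cells were read. Integrin Itgb1 stood at 965 to 1375 CPM in the pools and 431 to 1191 CPM in the single clones, and Cd44 at 143 to 243 CPM in the pools and 107.5 to 210.3 CPM in the single clones. Pdgfra was at 35.1 to 66.6 CPM in the pools and 24.1 to 113.8 CPM in the single clones, and Pdgfrb at 326 to 585 and 309 to 1118 CPM. Other stromal markers were low in some or all libraries. Thy1 was at 0 in 10 of the 12 libraries, and Ngfr was at most 0.56 CPM. Nt5e was at 1.04 to 11.4 CPM in the pools and 0.12 to 7.19 CPM in the single clones, and Cd34 at 0.95 to 10.7 and 0.24 to 84.5 CPM. Ptprc, which defines blood cells, was at 0 in 11 of the 12 libraries, and the endothelial genes Pecam1 and Cdh5 were at most 0.331 CPM and 0.130 CPM. Other endothelial markers were read, such as Flt1 at 1.00 to 22.1 CPM in the pools and 0.26 to 18.5 CPM in the single clones and Egfl7 at 5.78 to 8.86 CPM in the pools and 4.67 to 15.4 CPM in the single clones. The sum of the endothelial list was 12.6 to 36.5 CPM in the pools and 17.1 to 36.6 CPM in the single clones. Other blood cell markers, such as Cd14, Cd68, Csf1r, Cd74 and Lyz2, had reads in every library. Cd74 was at 2.17 to 9.66 CPM in the pools and 3.32 to 196 CPM in the single clones, and Lyz2 at 0.52 to 8.10 and 0.24 to 38.7 CPM. Summed blood cell markers were 10.9 to 30.8 CPM in the pools and 15.1 to 265 CPM in the single clones, where O1 was highest. The sum of smooth muscle contractile genes ranged widely, at 9408 to 13178 CPM in the pools and 8152 to 29175 CPM in the single clones. The pools are described as a further set that was prepared and sequenced beside the single clones, so pool status and a difference in preparation cannot be told apart.

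Single clones of the same potency differed widely, and the 20 genes that differed most included the bone matrix gene Ibsp, complement C3, the protease Mmp9, the mitotic gene Mki67 and Hoxb9. Of 13757 genes tested, 4.22% lay at least 4-fold apart between OAC2 and OAC1 and 4.86% between A2 and A1. The share was 16.5% between OA2 and OA1 and 19.7% between O2 and O1. OA2 and O1 had the most positive correlations with the GC content of genes, and with the GC trend of each library removed the shares were 4.26% for OAC, 4.77% for A, 11.2% for OA and 14% for O. How much of the wider OA and O differences comes from the GC trend beyond that removal was not tested. At least 4-fold differences in all 4 groups were found for 38 genes, or 0.276%.

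The genes are ranked here by the root mean square of the 4 log2 differences between the clones of a group, which weights the groups alike. Genes with a predicted-locus name (Gm and the like) were left out of this ranking, and 2 of them, Gm10159 and Gm11942, which would have led it, are described further on. Ibsp, the bone sialoprotein that binds mineral, then came first at 6.69. Its level was 200.1 CPM in OAC3, 1473 CPM in OA3, 202 CPM in O3 and 0.22 CPM in A3. Among the single clones it was 129 CPM in OAC2 and 2.77 CPM in OAC1, 1.09 CPM in OA2 and 311 CPM in OA1, 805 CPM in O2 and 1.92 CPM in O1, and 0.64 CPM in A2 with no read in A1. Thus 1 clone of each bone-forming group was high and the other low, while all 3 bone-forming pools were high and the A pool stayed low.

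Sp7, Panx3 and Alpl were high in the same clones as Ibsp in the 3 bone-forming groups, and Mef2c was not in OAC. Sp7, the transcription factor osterix, was at 105 CPM in OAC3, 187 CPM in OA3, 52.6 CPM in O3 and 1.00 CPM in A3. The high single clones for Sp7 were OAC2 at 118 CPM, OA1 at 212 CPM and O2 at 391 CPM. The low ones were OAC1 at 5.28 CPM, OA2 at 14.3 CPM and O1 at 23.2 CPM, with A2 at 0.48 CPM and A1 at 0.61 CPM. Panx3, a pannexin channel of osteoblasts and chondrocytes, and Mef2c, a transcription factor of bone and muscle, were also among the 20 genes that varied most, at 5.43 and 5.61. Mef2c was at 30.4 CPM in OAC3 with 0.20 and 11.2 CPM in OAC2 and OAC1, so its high clone there was OAC1. Panx3 was at 24.4 CPM in OAC3, 94.8 CPM in OA3 and 10.1 CPM in O3, against 16.4 and 0.22 CPM in OAC2 and OAC1, 0.34 and 31.3 CPM in OA2 and OA1, and 88.2 and 0.73 CPM in O2 and O1. Alpl, the alkaline phosphatase of mineralizing cells, was at 1056 CPM in OAC3, 1393 CPM in OA3, 486 CPM in O3 and 44.1 CPM in A3. Its high clones were again OAC2 at 1449 CPM, OA1 at 1092 CPM and O2 at 2650 CPM, and its low clones in those groups were OAC1 at 236 CPM, OA2 at 237 CPM and O1 at 166 CPM. Runx2, which stands at the start of the lineage, varied less, with a root mean square of 1.11 and with 56.6 to 117 CPM in the pools and 59.7 to 214 CPM in the single clones. Of the 24 osteoblast genes tested, 10 in OAC, 13 in OA, 13 in O and 3 in A were at least 4-fold apart, which is 40.6% of gene and group combinations, against 11.3% over all genes.

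**Figure D1:**
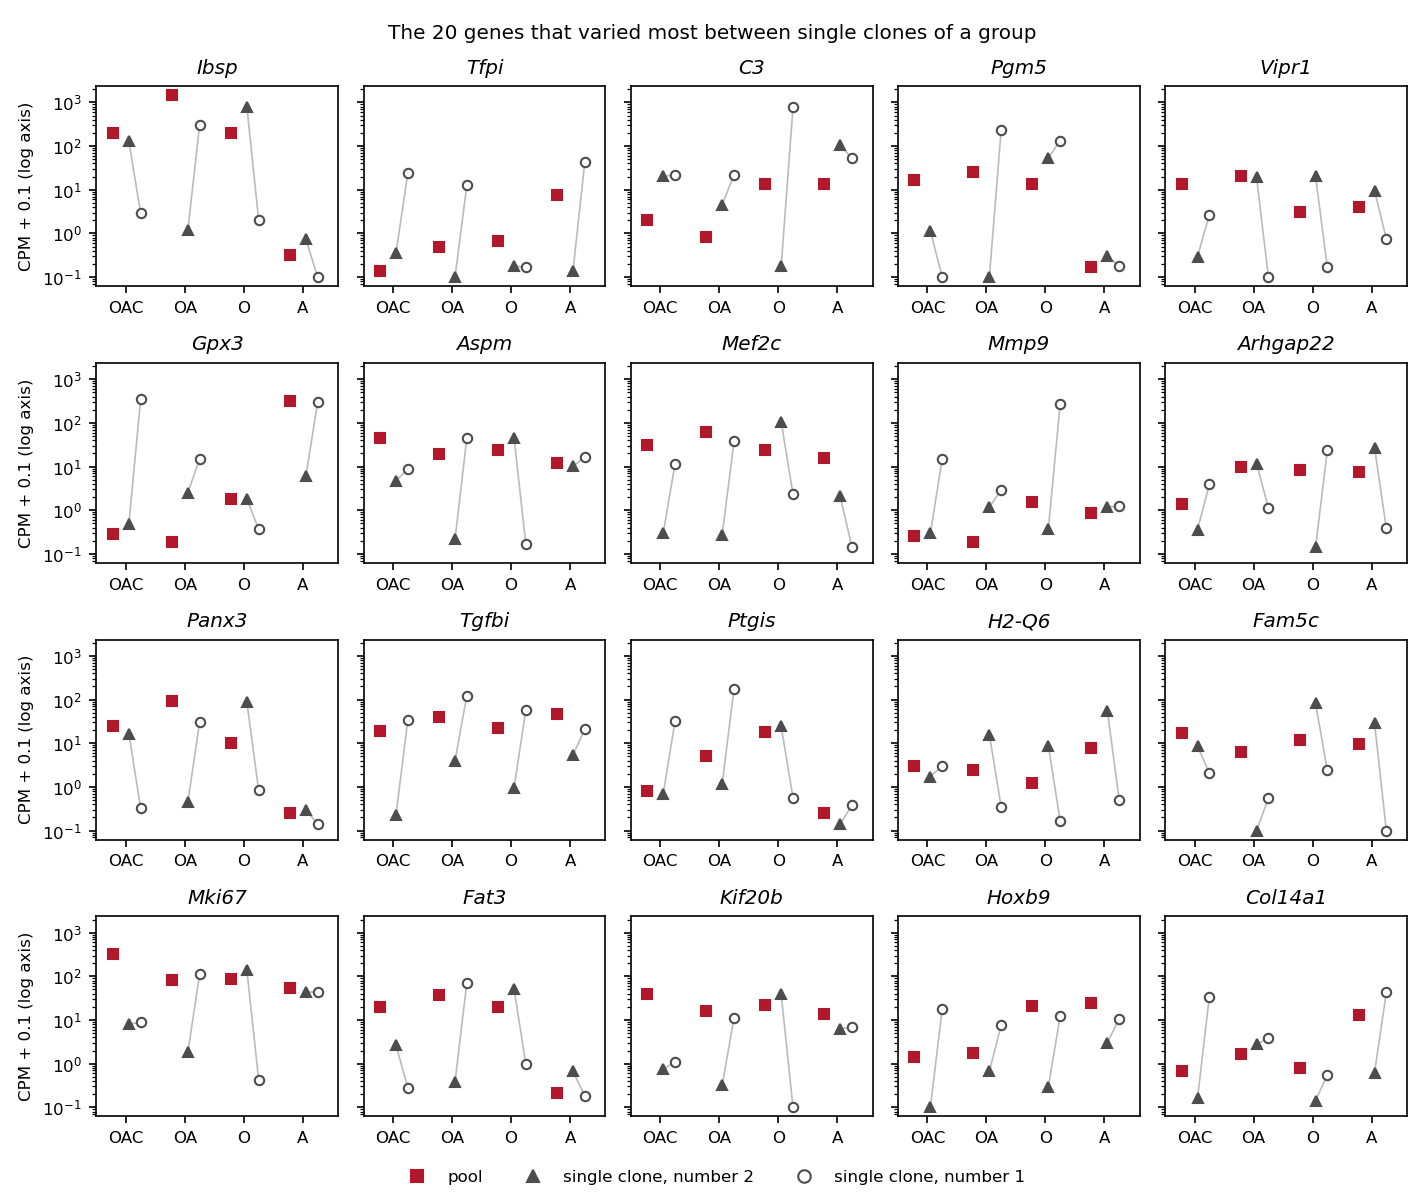
Levels of the 20 genes with the greatest root mean square log2 difference between single clones of a group, in CPM plus 0.1 on a log axis, by potency group (x axis). Squares are pools, triangles number 2 clones and open circles number 1 clones, each 1 library; for Ibsp 1 of the clones of OAC, OA and O is high and the other low, while their 3 pools lie at 200.1 CPM or above.

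Secreted and matrix genes made up another part of the 20. Complement C3 had a root mean square of 6.20. It stood at 13.3 CPM in O3, against 0.08 CPM in O2 and 773 CPM in O1. In the other groups C3 was at 1.94 CPM in OAC3 with 20.4 and 21.4 CPM in OAC2 and OAC1, at 0.74 CPM in OA3 with 4.46 and 21.7 CPM in OA2 and OA1, and at 13.6 CPM in A3 with 103 and 52.5 CPM in A2 and A1. The O pool thus lay between its clones, and the other 3 pools lay below both of theirs. Mmp9, a gelatinase, was at 0.15 CPM in OAC3, 0.09 CPM in OA3, 1.45 CPM in O3 and 0.78 CPM in A3. Its single clone levels were 0.20 and 14.8 CPM in OAC2 and OAC1, 1.09 and 2.81 CPM in OA2 and OA1, 0.28 and 273 CPM in O2 and O1, and 1.08 and 1.14 CPM in A2 and A1, so O1 stood far above the rest for Mmp9. Gpx3, a secreted glutathione peroxidase, was at 0.19 CPM in OAC3 with 0.39 CPM in OAC2 and 347 CPM in OAC1, and at 319 CPM in A3 with 5.87 CPM in A2 and 292 CPM in A1. For Gpx3 the pool lay below both clones in OAC and above both in A, near the low clone in OAC and near the high clone in A. Tgfbi, a matrix protein induced by TGF-beta, was at 19.2, 39.1, 22.3 and 47.7 CPM in OAC3, OA3, O3 and A3, a narrow range. Its number 2 clones stood at 0.13, 3.89, 0.84 and 5.26 CPM and its number 1 clones at 34.4, 124, 58.2 and 21.1 CPM in the same order. The rest of the 20 were Tfpi, an inhibitor of coagulation, Pgm5, Vipr1, the receptor of vasoactive intestinal peptide, Arhgap22, Ptgis, the prostacyclin synthase, H2-Q6, Fam5c, Fat3, Hoxb9 and the fibril-associated collagen Col14a1, beside the mitotic genes Aspm, Mki67 and Kif20b. H2-Q6 has near-identical relatives in the class I cluster, so its counts are uncertain.

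Most cell cycle genes tested were at least 4-fold apart between the clones of O, and none between those of OAC or A. Mki67, which marks cycling cells, was at 323 CPM in OAC3, 83.6 CPM in OA3, 87.9 CPM in O3 and 54.4 CPM in A3. The single clones had 7.94 and 8.68 CPM in OAC2 and OAC1, 1.71 and 114 CPM in OA2 and OA1, 140.0 and 0.33 CPM in O2 and O1, and 43.6 CPM in both A2 and A1. Of 32 cell cycle genes tested, 0 in OAC, 7 in OA, 23 in O and 0 in A were at least 4-fold apart. Over all genes the shares were 4.22% in OAC, 16.5% in OA, 19.7% in O and 4.86% in A, so OA was near its share. In 28 of these 30 cell cycle combinations, or 93.3%, the pool lay between the clones, against 62.9% over all genes, where the groups weigh differently. By group it did so for 23 of 23 in O and 5 of 7 in OA, against 77.9% and 41.3% of all genes there. The 23 genes of O rest on the same 3 libraries. Summed cell cycle levels were 2339 to 3323 CPM in the pools and 781 to 3890 CPM in the single clones, with O1 lowest. The same clone, O1, had 0.33 CPM of Mki67 and the highest C3, Mmp9 and Cxcl1.

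Interferon and class I antigen genes set A2 apart from A1, and 9 of 14 class I genes were at least 4-fold apart there. Of 30 interferon response genes, 25 were at least 4-fold apart between A2 and A1. The counts were 9 in OAC, 8 in OA and 11 in O. Together with A these are 44.2% of combinations, against 11.3% over all genes. Over all genes the shares were 4.22% in OAC, 16.5% in OA, 19.7% in O and 4.86% in A. With the GC trend removed the interferon counts were 9 in OAC, 2 in OA, 8 in O and 25 in A. These are 36.7% of combinations, against 8.57% over all genes. The shares of all genes were then 4.26%, 11.2%, 14% and 4.77% in the same order, and OA was below its share. Ifit1, an interferon-induced RNA-binding protein, was at 86.3 CPM in A3, 180 CPM in A2 and 12.4 CPM in A1. Oas1a, an antiviral sensor enzyme, was at 25.9 CPM in A3, 47.1 CPM in A2 and 2.1 CPM in A1. The class I heavy chain H2-K1 was at 341 CPM in A3, 1336 CPM in A2 and 86.0 CPM in A1. In A and in OAC the pool lay between the clones for all 25 and all 9 interferon genes, while it did so for 3 of 8 in OA and for 1 of 11 in O. Over all genes 4-fold apart the pool did so for 73.5% in A, 65.6% in OAC, 41.3% in OA and 77.9% in O. The interferon genes of OA were thus near the share of all genes. The summed interferon level was 594 CPM in OA3, below both OA2 at 2511 CPM and OA1 at 1009 CPM. In O, Oas1a was at 11.7 CPM in O3, 0.16 CPM in O2 and 9.72 CPM in O1.

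Positional genes also differed between clones of the same potency. Hoxb9, a posterior Hox gene, was at 1.33, 1.69, 20.6 and 23.8 CPM in OAC3, OA3, O3 and A3. The number 2 clones had 0, 0.57, 0.20 and 2.89 CPM and the number 1 clones 17.6, 7.58, 12.2 and 10.7 CPM. Hoxb9 was thus higher in number 1 in every group, and the pools of O and A lay above both clones. Hoxa11, a gene of the forearm and lower leg segment, was at 13.6 CPM in OAC3, 32.5 CPM in OA3, 1.85 CPM in O3 and 1.40 CPM in A3. It was at 11.7 and 0.54 CPM in OAC2 and OAC1, 35.6 and 13.3 CPM in OA2 and OA1, 0.08 and 0 CPM in O2 and O1, and 29.9 and 0.04 CPM in A2 and A1. An antisense gene, Hoxa11as, overlaps it on the other strand, so its counts are uncertain. Of 39 Hox and limb genes, 9 in OAC, 9 in OA, 8 in O and 13 in A were at least 4-fold apart. Together these are 25% of combinations, against 11.3% over all genes. The shares over all genes were 4.22% in OAC, 16.5% in OA, 19.7% in O and 4.86% in A, so O was near its share. The pool lay between the clones in 21 of these 39 combinations, or 53.85%, against 62.9% over all genes, where the groups weigh differently. By group it did so for 7 of 9 in OAC, 7 of 9 in OA, 2 of 8 in O and 5 of 13 in A. The shares of all genes there were 65.6%, 41.3%, 77.9% and 73.5%. Pitx1, the hindlimb factor, was at 30.2 CPM in OAC3, 15.2 CPM in OA3, 23.8 CPM in O3 and 0 CPM in A3. Its single clones had 20.8 to 110.1 CPM in the OAC, OA and O groups and at most 0.08 CPM in A2 and A1, and its root mean square of 0.79 is near the median of all genes, 0.77.

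OAC2 and OAC1 had the fewest genes at least 4-fold apart, yet single genes were read in 1 clone and not in the other. Pax3, a transcription factor of muscle and neural crest, was at 15.3 CPM in OAC3, had no read in OAC2 and was at 26.1 CPM in OAC1. Esm1, a secreted proteoglycan, was at 2.51 CPM in OAC3, 157 CPM in OAC2 and 0.45 CPM in OAC1. Igf2bp3, an RNA-binding protein of fetal tissue, was at 2.32 CPM in OAC3, had no read in OAC2 and was at 22.8 CPM in OAC1. When the genes were ranked over OAC and A alone, 7 of the first 20 were the same as over all 4 groups, and Gpx3, Tfpi and Col14a1 then led. With the GC trend removed, 16 of the first 20 were the same.

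In some gene groups fewer members were far apart between clones. At least 4-fold differences made up 1.56% of combinations for 16 cholesterol synthesis genes, 5.36% for 14 immediate early genes, 5% for 10 clustered protocadherins and 6.58% for 19 glycolysis and hypoxia genes. Over all genes the share was 11.3%. Their median root mean square was 0.74 for cholesterol synthesis, 0.82 for immediate early genes, 1.06 for protocadherins and 0.85 for glycolysis and hypoxia, against 0.77 over all genes. The Y-linked genes Ddx3y, Eif2s3y, Kdm5d and Uty were read in every library, with summed sex-linked levels of 72.2 to 126 CPM in the pools and 5.60 to 341 CPM in the single clones. Xist, read from the inactive X of female cells, had at most 7 reads in any library.

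Whether pools average single clones was asked in 4 ways. The first was the position of the pool where its clones lay at least 4-fold apart. The pool lay between them in 65.6% of 581 genes in OAC, 41.3% of 2271 in OA, 77.9% of 2708 in O and 73.5% of 669 in A. The same measure was taken with a single clone as the third library, between the pool and the other clone. The sets of genes differ between these counts, since each asks for a 4-fold gap between another pair. OAC2 then lay inside in 47.4% and OAC1 in 70.5%, OA2 in 59.2% and OA1 in 73.2%, O2 in 40.5% and O1 in 44.9%, and A2 in 68.2% and A1 in 55.6%. The pool was inside more often than either of its single clones in O and A, and not in OAC and OA. In OA the pool lay above both clones in 56.1% of these genes. With the GC trend removed the shares for the pools were 66.0% in OAC, 57.8% in OA, 74.6% in O and 74.4% in A, and the OAC pool was then inside more often than OAC2 at 57.5% and OAC1 at 63.6%. The OA pool was still inside less often than its clones.

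The second way used all genes, without regard to the distance of the clones. The pool was the middle library of its group for 23.05% of genes in OAC, 31.9% in OA, 56.8% in O and 37.6% in A, a mean of 37.3% against 31.3% for the single clones. Moving the pool label among the 3 libraries of each group, in 81 arrangements, gave a two-sided exact permutation p of 0.556, and 0.272 with the GC trend removed. The smallest p these arrangements can give is 0.0123. Pools were thus not shown to be the middle library more often than single clones were. The mean was carried by O3. Without the O group the pool was the middle library for 30.85% of genes, below the 33.3% that the 3 libraries of a group average.

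The third way was detection of genes that were on in 1 clone and off in the other, set at 5 CPM or more and under 0.5 CPM. There were 77 such genes in OAC, 201 in OA, 261 in O and 58 in A. The pool held at least 0.5 CPM of 77.9% of them in OAC, 93.5% in OA, 95.4% in O and 93.1% in A, where the exact 95% binomial intervals were 67.0 to 86.6%, 89.2 to 96.5%, 92.1 to 97.6% and 83.3 to 98.1%. These intervals treat genes as independent and cover counting of genes only. For genes off in both clones the pool reached 0.5 CPM in 4.72% in OAC, 5.28% in OA, 3.59% in O and 3.13% in A. How often a single clone in the place of the pool would reach 0.5 CPM was not tested. These detection shares therefore cannot decide whether pools average single clones. On the linear scale, where 0 is the low clone and 1 the high clone, the median pool stood at 0.204 in OAC, 1.06 in OA, 0.532 in O and 0.309 in A. OA2 was the off clone for 185 of the 201 OA genes and O1 for 191 of the 261 O genes, and these libraries had the most positive correlations with GC content.

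The fourth way was the spread from one potency to the next. Pools of different potency lay nearer to each other than single clones did. The median absolute log2 difference between a pair of pools was 0.197 to 0.365, with a mean of 0.275 over 6 pairs. Between single clones of different potency it was 0.305 to 0.907, with a mean of 0.559 over 24 pairs, and a mean of 0.447 over the 13 pairs without OA2 and O1. Taking 1 library per group in all 81 arrangements, the 4 pools gave the lowest mean distance of all, with a two-sided exact permutation p of 0.0123, the smallest possible, and 0.0329 after Benjamini-Hochberg adjustment over the 8 library measures tested. The mean over arrangements was 0.506. With the GC trend removed the pools lay at 0.251 and the exact p was again 0.0123. Without the OA group the pools lay at 0.309 and without the O group at 0.298, with an exact permutation p of 0.148 each. Without both the pools OAC3 and A3 lay at 0.365, with an exact permutation p of 0.667. The same pools also shared low antisense counts and negative GC trends, described below, so a shared preparation and averaging of clones cannot be told apart from these distances alone.

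**Figure D2:**
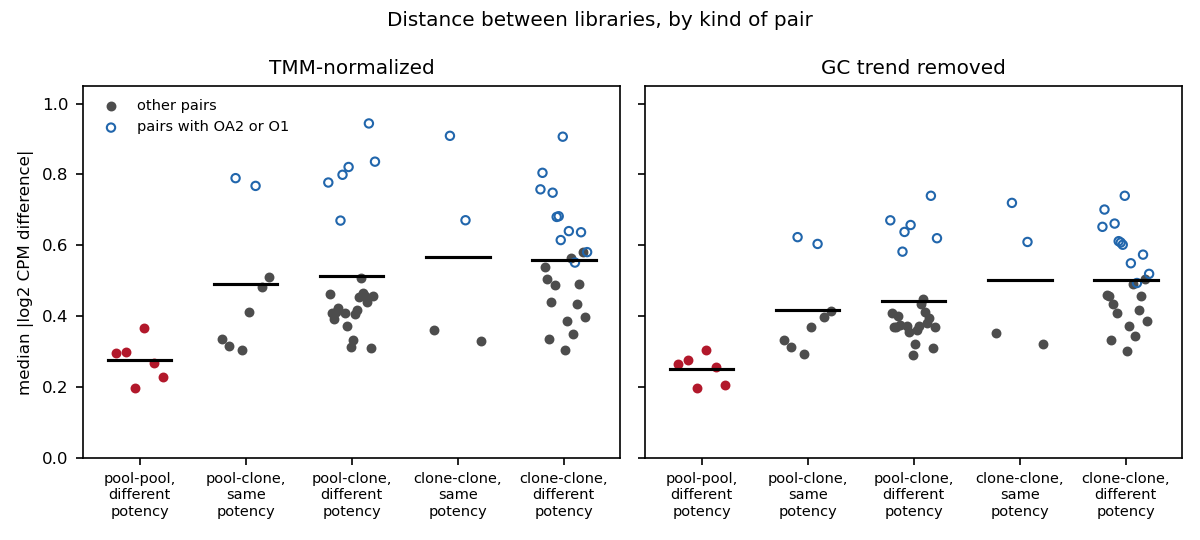
Distance between libraries as the median absolute log2 CPM difference over 13757 genes (y axis), by kind of pair (x axis), before and after removal of each library's GC trend. Each point is a pair of libraries, open points are pairs with OA2 or O1, red points are pairs of pools, and bars are means; the 6 pool pairs lie at 0.197 to 0.365 before removal.

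Gene by gene, the SD of log2 CPM over the 4 potencies had a median of 0.249 in the pools, 0.562 in the number 2 clones and 0.467 in the number 1 clones. The pools had the least spread of these 3 sets for 71.5% of genes, and for 70.3% with the GC trend removed, and the most spread for 4.59%. Among the lists, the pools had the least spread for 27 of 32 cell cycle genes, 14 of 15 smooth muscle contractile genes, 17 of 20 adipocyte genes, 13 of 15 imprinted genes and all 4 sex-linked genes tested. With the GC trend removed the shares were 90.6% for cell cycle, 86.7% for smooth muscle, 75% for adipocyte and 73.3% for imprinted genes. The adipocyte and imprinted shares were then near the 70.3% of all genes. Osteoblast genes kept more of their spread, with a median SD of 1.25 in the pools, 2.31 in the number 2 clones and 1.25 in the number 1 clones. The pools had the least spread for 12 of 24 osteoblast genes, or 50%, and for 37.5% with the GC trend removed. Other lists also lay below the 71.5% of all genes. The share was 36.4% for chemokine, 46.7% for glucocorticoid response, 50% for cartilage, 50% for protocadherin and 51.3% for Hox and limb genes. Immediate early genes went the other way. Their median SD was 0.855 in the pools, 0.587 in the number 2 clones and 0.704 in the number 1 clones, and the pools had the most spread for 7 of 14. Summed immediate early levels were 410 CPM in OAC3, 723 CPM in OA3, 693 CPM in O3 and 1403 CPM in A3. They were 1398 and 1298 CPM in OAC2 and OAC1, 1466 and 1165 CPM in OA2 and OA1, 668 and 628 CPM in O2 and O1, and 1171 and 1742 CPM in A2 and A1. The tripotent pool was the lowest of the 12 libraries.

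**Figure D3:**
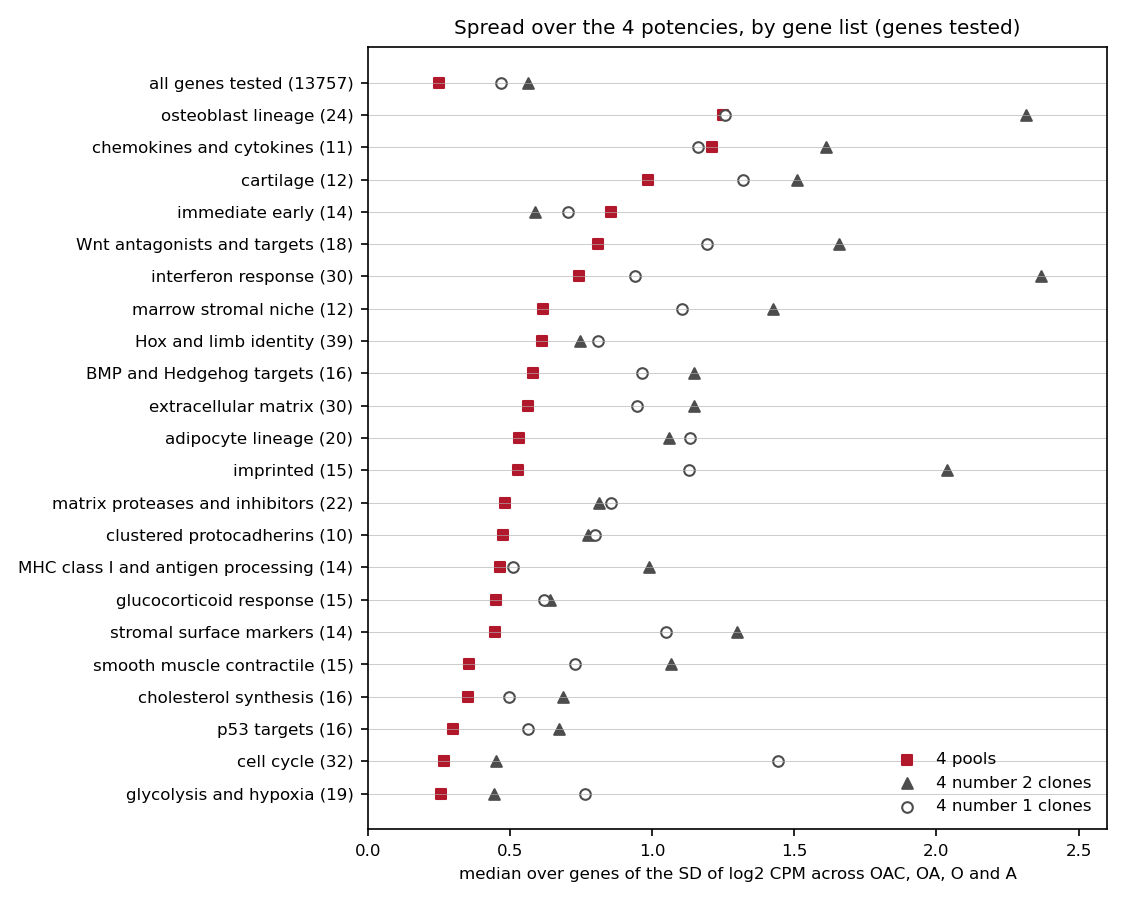
Spread over the 4 potencies for each gene list with at least 10 genes tested, as the median over its genes of the SD of log2 CPM across OAC, OA, O and A (x axis). Squares are the 4 pools, triangles the 4 number 2 clones and open circles the 4 number 1 clones; pools have the lowest median for all genes (0.249), and the highest for immediate early genes (0.855).

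The number of genes detected was set side by side as well. After thinning to the depth of the shallowest library, 16888190 counts, the pools held 13729 to 14005 genes with at least 10 reads and the single clones 12721 to 13884.5, each the mean expected under thinning. OA2 was lowest. The two-sided exact permutation p was 0.185, and 0.0864 for genes with at least 1 read, so more genes in the pools were not shown.

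Few genes passed the edgeR test between pools and single clones across all 4 potency groups, and those that passed were lower in the pools. The number that passed depended on the method, so few calls do not show that few genes differed. With potency as a block, edgeR called 4 genes, or 0.0291% of the 13757 tested, all lower in the pools. At an unadjusted p under 0.05, 442 genes were higher and 1199 lower. DESeq2 called 108 genes higher and 496 lower, or 4.39%, and limma-voom called 0. Leaving out 1 library at a time gave 414 calls without O2, 10 without OA2, 4 without O1 and 0 without any of the other libraries. The 4 called genes were the predicted loci Gm10210, Gm15821, Gm16624 and AC119214.1, of which Gm10210 is listed as antisense and Gm15821 as long noncoding in GENCODE M21, while Gm16624 and AC119214.1 were not matched in it. Gm15821 averaged 2.40 ± 0.74 CPM in the pools and 12.6 ± 3.57 CPM in the single clones (SD, n = 4 and 8), a log2 fold change of -2.40 ± 0.26 (SE) with an FDR of 0.0478. Gm10210 averaged 3.24 ± 0.79 CPM in the pools and 22.5 ± 8.25 CPM in the single clones, a log2 fold change of -2.73 ± 0.32 with the same FDR. Every pool lay below every single clone for both. Gm15821 overlaps Tap2, a peptide transporter of the class I pathway, on the other strand. Tap2 stood at 66.3, 67.0, 54.9 and 90.3 CPM in OAC3, OA3, O3 and A3 and at 56.0 to 204 CPM in the single clones, with a log2 fold change of -0.56 and an FDR of 0.327. It too lay below both clones of its group in every pool, without passing.

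Antisense genes as a class were lower in the pools. The 248 antisense genes tested had a median log2 fold change of -1.82, against -0.03 over all genes, and 73.8% of them had an unadjusted p under 0.05 with the pools lower, against 8.72% of all genes. Their summed level was 620 CPM in OAC3, 641 CPM in OA3, 608 CPM in O3 and 614 CPM in A3. It was 1659 and 1568 CPM in OAC2 and OAC1, 1307 and 1678 CPM in OA2 and OA1, 959 and 1837 CPM in O2 and O1, and 954 and 1468 CPM in A2 and A1. Pools and single clones did not overlap, and the two-sided exact permutation p was 0.0123, adjusted 0.0329. Protein-coding genes with exons overlapped on the other strand had a median log2 fold change of -0.10, and those with none had a median of 0.01. The library protocol keeps the strand, but the strand setting of the counting is not given in the sources used here, so reads of a gene and of its antisense partner may have been mixed. The part that RNA from the opposite strand takes in these counts was not tested.

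**Figure D4:**
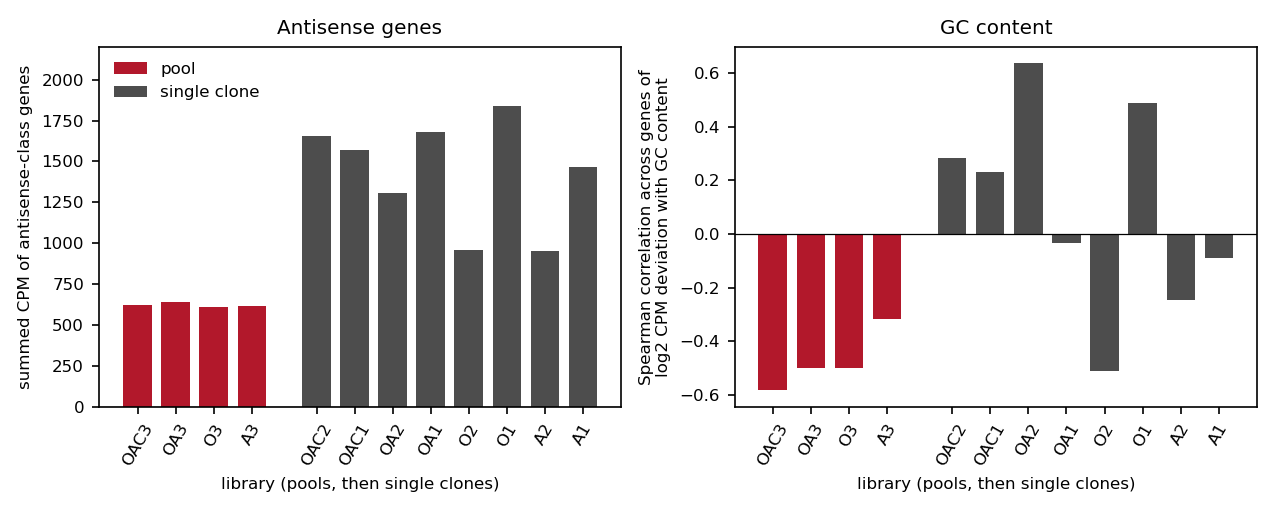
Summed CPM of 248 antisense-class genes (left) and the Spearman correlation, across genes, of each library's log2 CPM deviation with GC content (right), 1 bar per library, pools before single clones. The pools lie at 608 to 641 CPM, below all single clones, and all 4 pools have negative correlations.

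No gene with a conventional name passed in this fit, so the genes nearest to the threshold are given as values that did not pass. Nearest among those higher in the pools was Alcam, the adhesion molecule CD166 used as a stromal progenitor marker. Alcam was at 52.8 CPM in OAC3, 56.0 CPM in OA3, 101 CPM in O3 and 63.0 CPM in A3. It was at 13.8 and 12.8 CPM in OAC2 and OAC1, 6.34 and 10.3 CPM in OA2 and OA1, 48.5 and 19.9 CPM in O2 and O1, and 6.03 and 9.67 CPM in A2 and A1. Every pool exceeded every single clone. Pools exceeded clones by a log2 fold change of 2.36 ± 0.31 (FDR 0.0507), and by 2.09 ± 0.25 (FDR 0.0289) once the GC trend of each library was offset, where it was the 1 gene called higher among 10 calls (0.0727%). Without single libraries its FDR ranged between 0.00667 and 0.319.

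Of the other 9 genes nearest to the threshold on the higher side, Aspn, Sema3c and Igfbp5 are given in full. Aspn, asporin, a small leucine-rich matrix protein, was at 43.4 CPM in OAC3, 79.8 CPM in OA3, 175 CPM in O3 and 36.7 CPM in A3. The single clones had 8.07 and 1.16 CPM in OAC2 and OAC1, 3.26 and 7.33 CPM in OA2 and OA1, 83.3 and 10.3 CPM in O2 and O1, and 0.84 and 1.02 CPM in A2 and A1. Each pool lay above the clones of its own group (log2 fold change 3.72 ± 0.71, FDR 0.0648). With GC offsets the log2 fold change of Aspn was 2.28, with an FDR of 0.278. Sema3c, a secreted guidance cue, was at 29.0, 83.6, 37.8 and 32.7 CPM in OAC3, OA3, O3 and A3, and at 2.57 to 21.7 CPM in the single clones (2.83 ± 0.57, FDR 0.0681). Every pool exceeded every single clone for Sema3c. Igfbp5, an IGF-binding protein of bone matrix, was at 14.2, 18.0, 167 and 1.96 CPM in OAC3, OA3, O3 and A3 and at 0.04 to 27.5 CPM in the single clones, and in OAC the pool lay between its clones (4.83 ± 1.07, FDR 0.0858). The rest were Fam13a, Ntn4, Mfap3l, Igsf10, Bdnf and Mecom, with log2 fold changes of 1.29 to 2.28 and FDR of 0.0884 to 0.137. With GC offsets Bdnf was at 1.38 (FDR 0.475), Sema3c at 2.32 (FDR 0.058), Igfbp5 at 4.91 (FDR 0.079) and Ntn4 at 1.51 (FDR 0.0604). Fam13a, Mfap3l, Igsf10 and Mecom were then at 1.235, 1.455, 1.77 and 1.64 (FDR 0.1, 0.0612, 0.175 and 0.116). Each of the 10 lay above both single clones in all 4 groups except Igfbp5 and Bdnf, which did so in 3. A pool above both clones in all 4 groups was seen for 2.65% of all genes, and a pool below both for 6.26%. With the GC trend removed these shares were 3.69% and 4.35%.

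The 10 genes nearest to the threshold on the lower side were B3gat2, Agxt2l2, Map3k4, Sla2, Cntd1, Acat3, Nt5c3l, Snx22, CT7-BM104O10.3 and Myo1h. For 9 of these 10, exons overlap a gene on the other strand. Among all protein-coding genes tested, 2597 had such an overlap and 9532 had none. Snx22, a sorting nexin gene, was at 17, 27, 20.6 and 25.4 CPM in OAC3, OA3, O3 and A3. The single clones had 109 and 115 CPM in OAC2 and OAC1, 120.1 and 95.9 CPM in OA2 and OA1, 33.0 and 141 CPM in O2 and O1, and 61.2 and 70.1 CPM in A2 and A1. Every pool lay below every single clone (log2 fold change -2.01 ± 0.38, FDR 0.0648). Its neighbour on the other strand, Ppib, a cyclophilin of collagen folding, was at 366 to 451 CPM in the pools and 307 to 768 CPM in the single clones, a log2 fold change of -0.14. Acat3 overlaps Tcp1, a chaperonin subunit, on the other strand, and had a log2 fold change of -2.50 ± 0.46 (FDR 0.0630), against -0.07 for Tcp1. For the partners of all 9 genes the log2 fold changes lay between -0.49 and 0.04. The 10th gene, Map3k4, is an Ensembl entry whose symbol a second entry shares, so its counts are uncertain.

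No member of the 27 gene lists passed the edgeR test in either direction. DESeq2 called 2 of 30 extracellular matrix genes higher and 1 lower, and 2 of 14 immediate early genes and 2 of 5 blood cell markers lower. It called 1 gene higher in each of the stromal surface (14 tested), Hox (39), imprinted (15), p53 target (16) and Schwann (6) lists. Over all 13757 genes DESeq2 called 108 higher and 496 lower, together 4.39%. In the edgeR fit, at an unadjusted p under 0.05, 4 of 16 p53 targets were higher and 0 lower. There 3 of 22 matrix proteases and inhibitors were lower and 1 higher. Of all genes, 3.21% were higher and 8.72% lower in that fit. Sex-linked genes had the greatest median log2 fold change at 1.08 (4 genes) and blood cell markers the lowest at -0.73 (5 genes), against -0.03 over all genes, and both rest on few genes. Stromal surface markers had a median of 0.53, interferon response genes 0.34, osteoblast genes -0.07, cell cycle genes 0.00, class I antigen genes -0.48 and chemokine genes -0.67. With GC offsets the medians were 0.22 for sex-linked genes, -0.67 for blood cell markers and 0.20 for stromal surface markers, against 0.06 over all genes. They were then 0.30 for interferon response, 0.22 for osteoblast, 0.09 for cell cycle, -0.23 for class I antigen and -1.10 for chemokine genes. Values of single members were wide of their list without passing. Ogn, osteoglycin of bone and connective tissue, was at 355, 372, 666 and 176 CPM in OAC3, OA3, O3 and A3. It was at 21.6 and 16.3 CPM in OAC2 and OAC1, 5.32 and 87.9 CPM in OA2 and OA1, 506 and 17.1 CPM in O2 and O1, and 27.9 and 54.2 CPM in A2 and A1 (log2 fold change 2.79, FDR 0.24). Each pool lay above its own clones. Mdm2, the p53-induced ligase that degrades p53, was at 304, 417, 621 and 754 CPM in the pools in that order and at 67.1 to 463 CPM in the single clones (1.03, FDR 0.19). Nr4a1, an immediate early nuclear receptor, was at 9.25, 11.8, 13.8 and 37.0 CPM in the pools and at 12.3 to 170.1 CPM in the single clones (-1.68, FDR 0.24). Csf1r, the macrophage colony-stimulating factor receptor, was at 1.07, 1.22, 0.51 and 1.18 CPM in the pools and at 1.40 to 4.87 CPM in the single clones (-1.84, FDR 0.0705), and its exons overlap Hmgxb3 on the other strand.

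The GC trend was negative in all 4 pools and varied in sign among the single clones. The Spearman correlation, across genes, of a library's deviation from the mean with GC content was -0.58 in OAC3, -0.50 in OA3, -0.50 in O3 and -0.32 in A3. In the single clones it was 0.28 and 0.23 in OAC2 and OAC1, 0.64 and -0.03 in OA2 and OA1, -0.51 and 0.49 in O2 and O1, and -0.25 and -0.09 in A2 and A1. O2 fell within the range of the pools. The exact permutation p was 0.0617, adjusted 0.123, so a difference between pools and single clones was not shown for this measure. The log2 fold change of pools over single clones correlated with GC content at -0.62 across genes, which are not independent and share these libraries. Its part in single genes was not tested beyond the fit with GC offsets, which called 1 gene higher and 9 lower.

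Clones of the same number were set against each other to ask whether differences between clones run the same way in every group. Number 2 over number 1 gave 0 calls with edgeR and 61 with DESeq2, and in the edgeR fit 279 genes passed an unadjusted p of 0.05. Still, 9 genes were at least 4-fold apart in all 4 groups with the same number higher, or 0.0654% of those tested. They were Ankrd1, Capn11, Gm11942 and Gm9008, higher in number 2, and Eps8l2, Parm1, Hoxb8, Gm10159 and Gm16882, higher in number 1. They were singled out after their values were seen and carry no test here beyond an FDR of 0.164 or more each.

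Gm10159 was the most extreme. It was at 16.1, 37.4, 32.3 and 60.6 CPM in OAC3, OA3, O3 and A3. In the number 2 clones it was at 0.07 CPM in OAC2, 0.17 CPM in OA2, 0.04 CPM in O2 and 0.08 CPM in A2. In the number 1 clones it was at 68.6 CPM in OAC1, 55.8 CPM in OA1, 117 CPM in O1 and 40.7 CPM in A1. All pools lay between the ranges of the number 2 and the number 1 clones, or within that of number 1. Gm11942 had the opposite order. Its level was 44.2, 48.6, 49.1 and 45.7 CPM in OAC3, OA3, O3 and A3, then 129, 218, 64.9 and 112 CPM in OAC2, OA2, O2 and A2, and 1.34, 0.84, 1.79 and 0.45 CPM in OAC1, OA1, O1 and A1. The 4 pools lay between both ranges.

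GENCODE M21 lists the Ensembl entry of Gm10159 at chr8:87047689-87048226 on the plus strand (GRCm38) as a processed pseudogene, a reverse-transcribed gene copy, of Rps13, which encodes a protein of the small ribosomal subunit and lies at chr7:116331505-116334195 on the minus strand. The sequences below show how little separates the copy from its parent gene, which bears on how reads can be assigned. They are coding bases 340 to 429 of Rps13 and the matching stretch of the copy, from GENCODE M21 transcripts, with capitals at the bases that differ:
Gm10159: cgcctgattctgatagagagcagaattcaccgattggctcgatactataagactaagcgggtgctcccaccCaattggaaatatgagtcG
Rps13: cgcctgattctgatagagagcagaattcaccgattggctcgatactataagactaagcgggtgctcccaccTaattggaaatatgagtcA
Over the 456 coding bases, 2 differ (99.6% identity), and both lie in the stretch shown. Rps13 itself was at 0.85 to 1.35 CPM in the pools and 0.66 to 1.54 CPM in the single clones. Counts of Gm10159 are therefore uncertain as a measure of that locus, and whether they stem from it or from its parent gene was not tested. Whether counts of Gm11942 and Gm9008 come from those loci or from near-identical copies was not tested either.

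Named genes showed the number pattern as well. Hoxb8, next to Hoxb9 in its cluster, was at 1.07, 0.56, 6.39 and 10.4 CPM in OAC3, OA3, O3 and A3, at 0, 0.69, 0 and 1.33 CPM in the number 2 clones, and at 11.8, 3.49, 3.44 and 7.31 CPM in the number 1 clones. Parm1, a mucin-like membrane protein, was at 16.8, 27.5, 26.3 and 24.4 CPM in the pools, 0.26, 5.20, 0.68 and 6.79 CPM in the number 2 clones, and 31.6, 22.5, 7.01 and 70.5 CPM in the number 1 clones. Ankrd1, a target of mechanical signalling through YAP, was at 22, 22.7, 47.9 and 110.5 CPM in the pools, 35.5, 18.9, 10.7 and 38.1 CPM in the number 2 clones, and 4.74, 1.28, 0.93 and 0.81 CPM in the number 1 clones. For Ankrd1 all 4 pools lay above every number 1 clone.

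**Figure D5:**
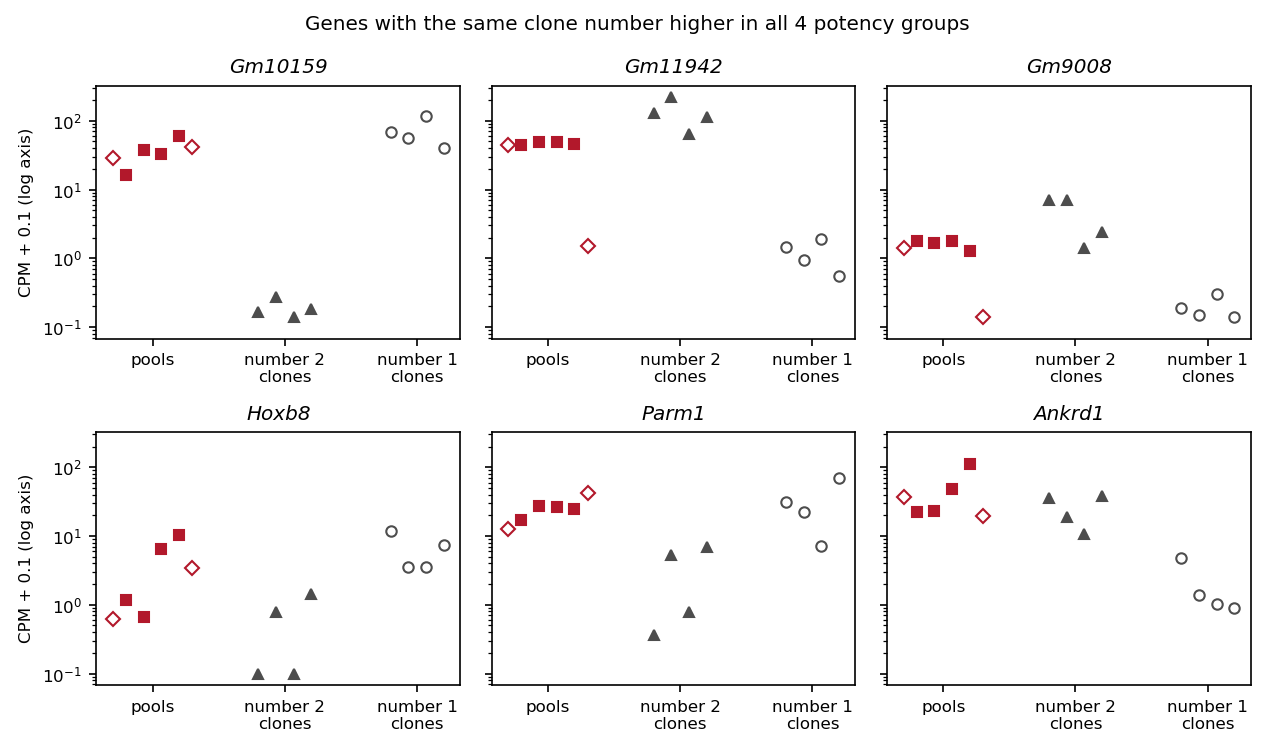
Levels of 6 of the 9 genes that were at least 4-fold apart in all 4 groups with the same clone number higher, in CPM plus 0.1 on a log axis. Squares are the 4 pools (OAC3, OA3, O3, A3), diamonds OC3 (left) and AC3 (right), triangles the number 2 clones and open circles the number 1 clones in the same potency order; for Gm11942 the 4 pools lie at 44.2 to 49.1 CPM between the clone ranges.

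The pools OC3 and AC3, which form bone and cartilage or fat and cartilage, did not enter any fit above and were set beside it. All 10 genes nearest to the threshold on the lower side lay below all 8 single clones in both pools. Of the 10 on the higher side, Aspn and Fam13a lay above all single clones in both, and Alcam was at 69.0 CPM in OC3 and 10.3 CPM in AC3, the second within the range of the single clones. Of the 1199 genes with an unadjusted p under 0.05 and lower pools, 44.2% lay below all single clones in both OC3 and AC3, against 7.68% of all genes. Of the 442 higher ones, 37.1% lay above all single clones in both, against 7.94% of all genes. All these genes, and the 10 on each side, were chosen with the values of the same 8 single clones. Shares above those of all genes therefore follow in part from that choice and are no independent test of the pools. The summed antisense level was 845 CPM in OC3 and 639 CPM in AC3, both below the lowest single clone. Gm11942 was at 44.9 CPM in OC3 and 1.39 CPM in AC3, and Gm10159 at 28.4 CPM in OC3 and 40.9 CPM in AC3. AC3 was within the range of the number 1 clones for Gm11942 and at its lower edge for Gm10159, where the scaling over 14 libraries does not decide the side. OC3 lay between the ranges for Gm10159 and for Gm11942.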

How the data were processed

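RNA of 14 libraries was sequenced after oligo(dT) selection with a strand-specific protocol, per the labels' protocols. The deposited table holds whole-number counts of reads for 23331 genes. Per the submitters' processing notes, CASAVA 1.8.0, bedtools 2.11 and the mm9 build were used; the sources used here do not name the aligner or say whether counting took account of strand. The labels state separate clones but no separate cultures for a library, so a p-value here reflects only how these libraries vary, which may be technical.

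The pools and single clones, gene lists and alternatives were chosen with earlier results of these data known. A gene was tested if 3 or more of the 12 libraries reached 1 CPM (13757 genes). Pools were compared with single clones by edgeR 4.0.16 (R 4.3.3, TMM, quasi-likelihood F test, potency as a block) with Benjamini-Hochberg adjustment at 0.05. DESeq2 1.42.0 and limma 3.58.1 were alternatives. The ± after a fold change is its SE, taken from the fold change and its F statistic. GC content came from the longest GENCODE M21 transcript matched by Ensembl number for 21807 genes, and trends were fitted by lowess with a span of 0.2. Single values were tested by exact permutation of the pool label within groups. The edgeR step was tested on simulated counts.

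Genes named were those past the threshold, filled to 10 per direction by lowest p at a mean of at least 5 CPM, the 20 with the greatest differences between single clones, up to 5 per group, and the extreme members of each list, without predicted genes. Other genes were named after their values were seen. 196 genes share a symbol with another, and their counts are uncertain. OC3 and AC3 levels come from a scaling over all 14 libraries. Total counts of 16888190 to 25649789 limit precision for genes near 1 CPM.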

Additional observations from a re-analysis of the deposited data

Results flagged for a closer look

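Of 112 sets of values tested for a library that stands apart, 4 were marked, and chance marks about 1 in 20 such sets. All 4 are single pools that lay lowest on the log2 CPM scale. Pgm5 was at -2.62 in A3, and the next pool was at 3.77. Fat3, a cadherin, was at -2.32 in A3 and at 4.29 in the next pool. Pitx1, the hindlimb factor, was at -3.49 in A3, a level set by the prior count since A3 had no read, and at 3.94 in the next pool. The single clones A2 and A1 were at most 0.20 CPM for Pgm5, 0.56 CPM for Fat3 and 0.08 CPM for Pitx1. Arhgap22 was at 0.43 in OAC3 and at 2.91 in the next pool.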

How the results depend on the processing

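The number of genes called between pools and single clones, 4 with edgeR, depended on the setting, and the cause was not tested. It was 604 with DESeq2, 0 with limma-voom, with RLE normalization, with upper quartile normalization and with all 14 libraries, 8 with no filter on low counts, 3 at 5 CPM, 10 with GC offsets and 2 without OA2 and O1. GC offsets without OA2 and O1, an alternative chosen after seeing the data, gave 111. Leaving out single libraries gave 0 to 414. The clone numbers were not shown to pair clones. Differences of number 2 over number 1 correlated at -0.59 between OA and O and at most 0.13 elsewhere. With the GC trend removed these values were -0.41 and at most 0.21. OA2 and O1, which had the most positive GC correlations, carry opposite numbers, so these correlations cannot decide whether a number marks a mouse. With the number as a replicate block 163 genes were called, and 223 with the replicate block and GC offsets. Number 2 over number 1 gave 0 calls, 61 with DESeq2, and 1 each with no filter and with GC offsets. Leaving out single clones gave 0 throughout. Combinations of gene and group at least 4-fold apart numbered 6229, against 14970 at 2-fold and 1390 at 16-fold, and 1250 in OAC and A alone, which was chosen after seeing the data. The share of genes with the pool in the middle, 37.3%, went below the average of 33.3% without the O group (30.85%) and without the OA and O groups (30.33%). The distance between pools, 0.275, was 0.309 without OA (exact permutation p 0.148), 0.298 without O (p 0.148) and 0.365 without both (p 0.667), where fewer arrangements remain. Detection in the pool of genes on in 1 clone, 92.3%, was 95.7% at 10 against 0.2 CPM and 84.4% in OAC and A alone, the second chosen after seeing the data. Recomputed fold changes of the 20 genes nearest to the threshold kept their direction, staying short of the threshold in 410 values and passing it in 70.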
